A study of Mus musculus with 4 samples.

Results

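Regulatory T cells (Treg cells) are the Foxp3-expressing CD4 T cells that keep immune responses in check. The genes described here are 10 mouse genes of 3 families that handle calcium, membranes and sugars in activated and migrating cells: S100a4, S100a6, S100a10, S100a11 and S100a13, the annexins Anxa1, Anxa2 and Anxa6, and the galectins Lgals1 and Lgals3. Members were found as the probe sets that the platform annotation assigns to these names, which gave 19 of 45037 probe sets. For 9 of the 10 genes, of 18193 genes named by a probe set of their own, a probe set annotated to that gene alone passed the filter on dim signals; the probe set of S100a11 is annotated to 3 genes (S100a11, the pseudogene S100a11-ps and Gm12854), so its signal was kept apart and is not that of S100a11 alone. RNA was taken from mouse spleen Treg cells of the C57BL/6 strain. The 4 arrays were 2 of wild-type cells and 2 of cells titled Foxo1/3-deficient, and each title also numbers the array as pair 1 or pair 2. For the deficient samples the genotype field has Foxo1 only and the title has both genes; groups follow the titles. How the genes were deleted, in which cells, and the age, sorting and number of animals behind each array do not stand in the labels. The labels also do not say whether a group spans several animals, and p-values then measure only the spread between these arrays, which may be technical.

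S100 proteins are small proteins that bind calcium through EF hands, mostly as dimers, and then bind partner proteins, among them myosin and annexins. Annexins bind phospholipid membranes when calcium is present and take part in membrane traffic and repair. Galectins bind beta-galactoside sugars on glycoproteins, inside and outside the cell. In T cells, several of these genes are known as transcripts of activated, effector and memory cells rather than resting ones. Galectin-1 has been described as an effector molecule of Treg cells.

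The promoters of the 4 members whose signal passed the test of the group difference (Anxa1, S100a4, S100a6 and Lgals3, below) are shown first, as the stretch where sites of the factors named in the titles would be sought. Each is the 250 bases before the gene's start from RefSeq (build GRCm38.p6), on the gene's own strand: Anxa1 on the minus strand at chr19:20390672-20390921, S100a4 on the plus strand at chr3:90603520-90603769, S100a6 on the plus strand at chr3:90612644-90612893 and Lgals3 on the plus strand at chr14:47373610-47373859. Capitals mark any match, on either strand, to 4 motifs: the FoxO consensus GTAAACA, its core AAACA (which the consensus contains), the AP-1 site TGANTCA and the TATA box TATAAA.
Anxa1: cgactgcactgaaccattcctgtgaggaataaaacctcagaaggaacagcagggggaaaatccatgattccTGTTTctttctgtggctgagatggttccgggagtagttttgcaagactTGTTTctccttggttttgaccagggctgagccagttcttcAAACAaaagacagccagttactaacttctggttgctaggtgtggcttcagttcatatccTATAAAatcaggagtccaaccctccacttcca
S100a4: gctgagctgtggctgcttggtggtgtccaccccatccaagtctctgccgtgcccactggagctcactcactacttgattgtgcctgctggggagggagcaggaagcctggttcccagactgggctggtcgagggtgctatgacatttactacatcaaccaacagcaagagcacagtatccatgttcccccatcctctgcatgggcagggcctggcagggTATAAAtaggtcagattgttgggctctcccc
S100a6: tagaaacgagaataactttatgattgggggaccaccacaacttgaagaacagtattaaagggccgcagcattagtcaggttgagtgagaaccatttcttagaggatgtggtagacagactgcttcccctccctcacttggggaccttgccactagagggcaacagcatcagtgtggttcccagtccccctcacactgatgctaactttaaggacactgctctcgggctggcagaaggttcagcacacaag
Lgals3: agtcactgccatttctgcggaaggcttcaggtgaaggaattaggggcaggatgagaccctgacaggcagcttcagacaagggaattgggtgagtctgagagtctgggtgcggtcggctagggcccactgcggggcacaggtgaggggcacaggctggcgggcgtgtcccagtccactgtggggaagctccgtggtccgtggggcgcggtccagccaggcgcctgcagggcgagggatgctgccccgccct
The Anxa1 window held 3 matches to the FoxO core, at 179 to 175, 131 to 127 and 91 to 87 bases before the start, of which the first 2 lie on the opposite strand and read TGTTT in the printed sequence. It also held a TATA box at 32 to 27 bases before the start, and S100a4 held a TATA box at 31 to 26 bases. The windows of S100a6 and Lgals3 held none of these letters. RefSeq promoter windows were matched for 7 of the 10 members (S100a4, S100a6, S100a11, S100a13, Anxa1, Anxa2 and Lgals3). The FoxO consensus was in 0 of the 7 and in 3.09% of the windows of 27025 genes. The core was in 2 of the 7 (Anxa1 and S100a13), against 46.8% of all windows. AP-1 letters were in 2 (S100a11 and Anxa2), against 6.87%, and the TATA box in 3 (S100a4, Anxa1 and Anxa2), against 13%. A match describes letters in this window and is not a binding site, and the absence of a match says nothing about the factor.

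Values are MAS5 signals on a linear scale, and the 4 arrays share a 2% trimmed mean of 500.003, with medians from 72.0 to 83.4. Foxo1, the targeted gene, was higher on the arrays labelled deficient: its brightest probe set read 2383 and 1254 in wild-type cells against 6949 and 6697 in labelled-deficient cells (log2 difference 1.97, limma adjusted p = 0.0209). Its other tested probe sets read 1161 and 720 against 4485 and 4015, and 786 and 612 against 3133 and 3438 (limma adjusted p = 0.0128 and 0.00839 over probe sets). Foxo3 read 1876 and 2635 against 1424 and 1308 (log2 difference -0.70, limma adjusted p = 0.241, and 0.0127 with the pair number as a block). The other tested Foxo3 probe set read 861 and 1001 against 554 and 521. Its log2 difference was -0.77 (limma adjusted p = 0.288 over probe sets, and 0.0704 with the block). On both arrays the Foxo1 signal was the opposite of what the label says; the labels do not place its probe sets relative to the deleted part of the gene, and every direction below is that of the arrays as labelled. The markers that define Treg cells were present on all 4 arrays, with Foxp3 signals from 6056 to 6540, Cd4 from 1456 to 3081 and Cd3e from 1858 to 3759.

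The comparison of the 2 labelled groups asked how the signals of these genes differ when Treg cells are labelled as lacking Foxo1 and Foxo3. Of the 9 genes tested, Anxa1, S100a4, Lgals3 and S100a6 fell and none rose (limma, Benjamini-Hochberg adjusted p under 0.05 over 12115 genes); at an unadjusted p under 0.05, 6 were lower and 0 higher, where 7.05% of all genes were lower and 5.93% higher. Anxa1 stood 7.51-fold lower, S100a4 3.11-fold, Lgals3 2.65-fold and S100a6 2.56-fold lower. Over all genes 1.35% were called lower and 1.21% higher. For 6 of the 9 both labelled-deficient arrays lay below both wild-type arrays, as for 21.1% of all genes; 20% lay above. Signals were tested as log2(signal + 17), so a fold change is on that scale. All 9 log2 differences lay below 0, from -2.91 to -0.14 with a median of -0.78, where 50.3% of all genes lay below 0 and the median of all genes was -0.0034; S100a10 and Anxa6 turned sign under alternatives given with them. Under the blocked fit, with the pair number as a term, Anxa2 and Lgals1 were called as well, which makes 6 of 9 lower, against 6.36% of all genes lower and 5.23% higher in that fit. On the same probe sets, neither gained call held when the blocked fit was adjusted over every probe set (adjusted p = 0.0813 for Anxa2 and 0.0597 for Lgals1). A dimmer probe set of Lgals1 did pass in that fit (limma adjusted p = 0.00656, where 2.61% of probe sets were called lower). The count of 4 became 2 with no filter on dim signals and 1, Anxa1, without limma's intensity trend, where S100a4 had an adjusted p of 0.0607, S100a6 of 0.111 and Lgals3 of 0.128. The members were chosen with results of these arrays known, so these counts describe them and do not test the list. In bulk RNA, fewer cells that carry a transcript and less of it per cell cannot be told apart.

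**Figure D1:**
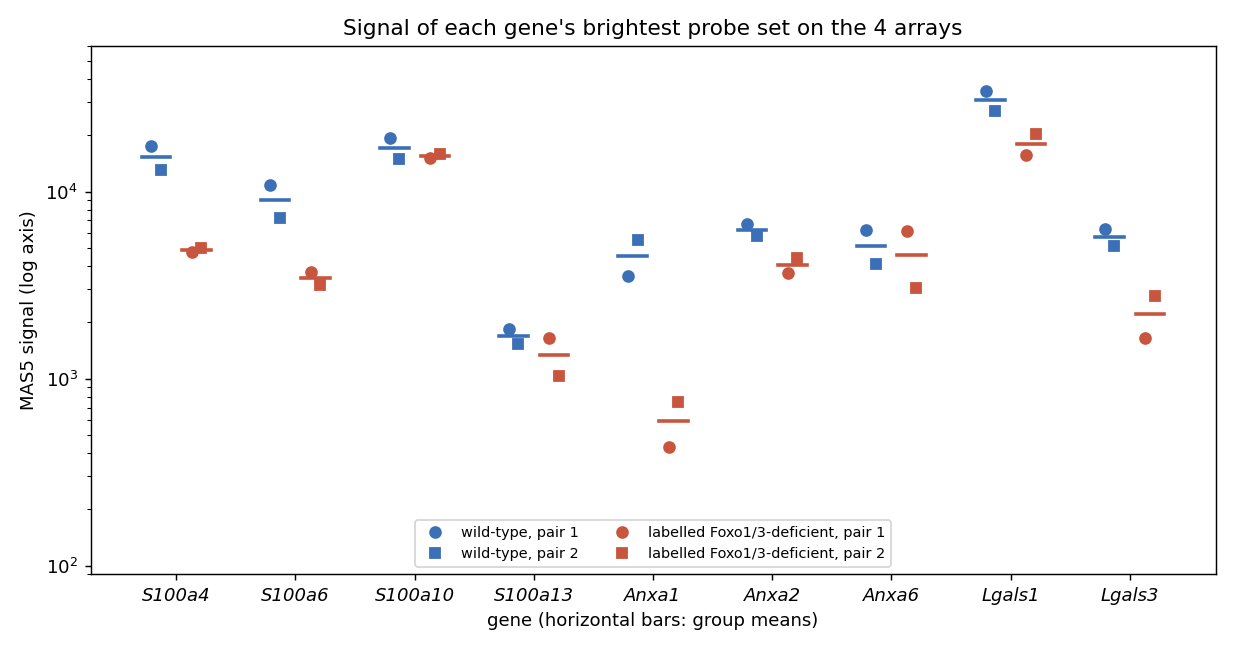
MAS5 signal (vertical, log axis) of the brightest probe set of each of the 9 tested genes; blue is wild-type, red is labelled Foxo1/3-deficient, circles are pair 1, squares pair 2 and horizontal bars group means. For S100a4, S100a6, Anxa1, Anxa2, Lgals1 and Lgals3 both red points lie under both blue points, while for S100a10, S100a13 and Anxa6 the groups overlap; heights are not comparable between genes.

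Among the S100 genes, S100a4 and S100a6 fell while S100a10 and S100a13 did not pass the test. S100a4 encodes a calcium sensor that binds non-muscle myosin and is linked to cell motility. Its signal was 17589 and 13043 in wild-type cells of pairs 1 and 2, against 4725 and 4997 in labelled-deficient cells. Both wild-type arrays lay far above both others, and the labelled-deficient arrays lay close together. The group means were 15316 ± 3214 and 4861 ± 192 (SD, n = 2), a log2 difference of -1.64 ± 0.20 (SE, as below; adjusted p = 0.00976 by limma), and the wild-type signal was 3.72 times that of the labelled-deficient array in pair 1 and 2.61 times in pair 2. Only 0.957% of all genes had a difference as low or lower.

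S100a6, or calcyclin, encodes a calcium-binding protein whose partners include annexins and the calcyclin-binding protein Cacybp. It read 10809 and 7180 in wild-type cells against 3730 and 3164 in labelled-deficient cells. The groups did not overlap, and pair 1 was higher than pair 2 in both. The means were 8995 ± 2566 and 3447 ± 400.3 (SD, n = 2), a log2 difference of -1.35 ± 0.24 (limma adjusted p = 0.0329), with within-pair ratios of wild-type over labelled-deficient of 2.90 and 2.27. Without labelled-deficient replicate 2 its adjusted p was 0.0830, and without the filter on dim probe sets 0.0938.

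S100a10 encodes p11, the S100 protein that pairs with annexin A2 and does not need calcium to do so. On its brightest probe set it read 19383 and 14955 in wild-type cells against 15041 and 15875 in labelled-deficient cells. The labelled-deficient values lie inside the wild-type range, and the log2 difference was -0.14 ± 0.18 (limma adjusted p = 0.869). Its sign turned to 0.047 without wild-type replicate 1 and to 0.068 on the mean of its probe sets. Another probe set read 6593 and 4970 against 7029 and 4290, and a dimmer probe set read 435 and 234 against 372 and 493, so neither separated the groups. S100a13, which takes part in the export of proteins that lack a signal peptide, read 1849 and 1524 against 1648 and 1037. Its groups overlapped, with a log2 difference of -0.36 ± 0.28 (limma adjusted p = 0.733). That S100a4 and S100a6 differ in response from S100a10 and S100a13 was not tested.

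The probe set shared by S100a11 and 2 other annotated names read 8797 and 5708 in wild-type cells against 4522 and 3743 in labelled-deficient cells. Both labelled-deficient arrays lay below both wild-type arrays. Over 27022 probe sets, of which 0.529% were called lower and 0.633% higher, its log2 difference was -0.78 ± 0.25 (limma adjusted p = 0.261, and 0.0258 in the blocked fit, where 2.61% were called lower). S100a11 is known as a partner of annexin A1, but this signal cannot be given to it alone.

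In RefSeq (GRCm38.p6, used for gene order) the S100a genes lie on chromosome 3. Protein-coding genes there run in the order S100a3, S100a2, S100a4, S100a5, S100a6, so that only S100a5 lies between S100a4 and S100a6, and S100a10 lies next to S100a11 elsewhere on that chromosome. The neighbours S100a3 and S100a5 had dim signals, from 41.1 to 51.9 and from 33.1 to 63.3 over the 4 arrays, and log2 differences of -0.15 and -0.53 (limma adjusted p = 0.954 and 0.674). S100a1 and S100a16, from the same run of genes, stood at 0.072 and 0.28 (limma adjusted p = 0.984 and 0.852). S100a8, the next tested gene after S100a6, stood at -0.98 ± 0.77 with signals from 14.2 to 211 (limma adjusted p = 0.733). S100a1, S100a3 and S100a5 are named for their place beside the members.

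Anxa1 had the lowest log2 difference of the members. It encodes annexin A1, a membrane-binding protein that is also secreted and signals through formyl peptide receptors. Its signal was 3523 and 5493 in wild-type cells against 431 and 754 in labelled-deficient cells. The groups lay far apart, and pair 2 was higher than pair 1 in both groups, the opposite of S100a6. The means were 4508 ± 1393 and 593 ± 229 (SD, n = 2), a log2 difference of -2.91 ± 0.33 (limma adjusted p = 0.00712), and the ratios within pairs, 8.17 and 7.28, were close to each other. Only 19 of 12115 genes (0.157%) had a difference as low or lower. It passed the threshold under all of the 13 alternatives tried. Its other probe set, at 46.1 and 3.92 against 5.09 and 3.58, was too dim to be tested.

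Anxa2, the membrane-binding partner of S100a10, read 6708 and 5777 in wild-type cells against 3677 and 4423 in labelled-deficient cells. The groups did not overlap. The log2 difference was -0.62 ± 0.20 (limma adjusted p = 0.190, and 0.0157 in the blocked fit). A dim probe set, whose name ends in _x_at (the platform's mark for probes that can match other sequences), read 199 and 64.9 against 114 and 192 and did not separate the groups, and the other, at 1.13 to 6.58, was not tested. Anxa6, the large annexin with a doubled core, had groups that overlapped. It read 6207 and 4073 in wild-type cells against 6157 and 3048 in labelled-deficient cells, so that the pair number separated the arrays and the label did not. Its log2 difference was -0.21 ± 0.35 (limma adjusted p = 0.913), turned to 0.089 without wild-type replicate 1 and reached 0.29 when labelled-deficient replicate 2 was left out, and its other 3 probe sets stood between -0.17 and -0.092.

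**Figure D2:**
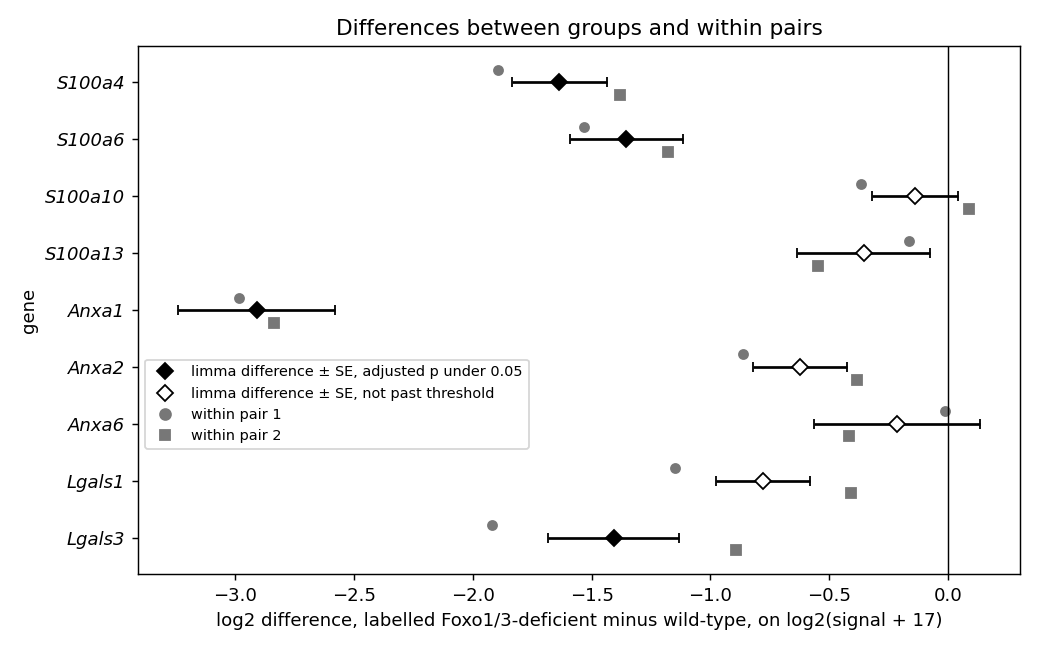
Log2 difference, labelled Foxo1/3-deficient minus wild-type on log2(signal + 17), for the 9 tested genes; diamonds are the limma difference with its SE (filled where the adjusted p is under 0.05), grey circles and squares the ratios within pairs 1 and 2. Anxa1 lies farthest left at -2.91 with both pairs near it, and only S100a10 in pair 2 lies right of 0.

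Of the galectins, Lgals3 fell, and Lgals1 passed on a dimmer probe set but not on its brightest. Lgals3 encodes galectin-3, the galectin whose tail lets it cross-link glycoproteins. It read 6286 and 5136 in wild-type cells against 1648 and 2755 in labelled-deficient cells. The groups did not overlap, and the labelled-deficient array of pair 1 was the lowest. The means were 5711 ± 813 and 2202 ± 783 (SD, n = 2), a log2 difference of -1.41 ± 0.27 (limma adjusted p = 0.0447). The ratio of wild-type over labelled-deficient was 3.81 in pair 1 and 1.86 in pair 2, and without labelled-deficient replicate 1 the adjusted p was 0.159. It was also past the threshold by little, with 0.0657 when every probe set was tested and 0.112 without the filter.

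Lgals1 encodes galectin-1, a dimeric lectin that binds T cell surface glycoproteins. Its brightest probe set read 34640 and 26828 in wild-type cells against 15599 and 20227 in labelled-deficient cells. Its other probe set read 16368 and 14625 against 6268 and 8100. On both, each labelled-deficient array lay below each wild-type array. The brighter differed by log2 -0.78 ± 0.20 (limma adjusted p = 0.102 over genes, and 0.0132 in the blocked fit). The dimmer differed by -1.12 ± 0.20 and passed over probe sets (limma adjusted p = 0.0454), where the brighter had 0.143. The call for Lgals1 thus depended on the probe set read; it also passed after quantile normalization (0.0343) and without wild-type replicate 2 (0.0250). Without labelled-deficient replicate 1 the dimmer probe set had an adjusted p of 0.202, and without wild-type replicate 1 of 0.0555.

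**Figure D3:**
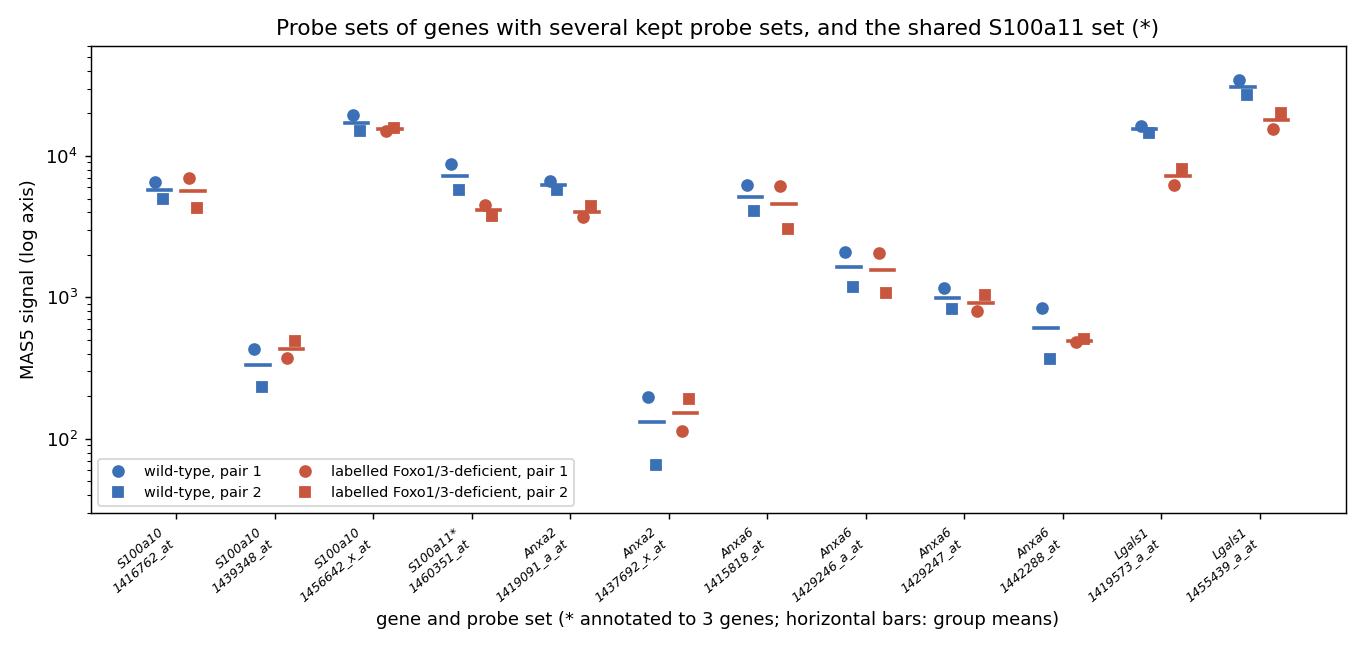
MAS5 signal (vertical, log axis) of the kept probe sets of S100a10, Anxa2, Anxa6 and Lgals1, and of the probe set that S100a11 shares with 2 other names; colours, symbols and bars are blue for wild-type, red for labelled Foxo1/3-deficient, circles for pair 1, squares for pair 2 and bars for means. Both Lgals1 probe sets separate the groups, while the 3 S100a10 and 4 Anxa6 probe sets do not.

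Within the pairs, Anxa1, S100a4 and S100a6 had signals at least 2-fold lower under the deficient label in each pair, as did 2.32% of all genes, while 2.06% were at least 2-fold higher. Lgals3 and Lgals1 were past 2-fold in pair 1 (log2 -1.92 and -1.15) and not in pair 2 (-0.89 and -0.41). For 7 of the 9 genes the log2 ratio was lower in pair 1 than in pair 2; S100a13 (-0.16 and -0.55) and Anxa6 (-0.012 and -0.42) were the exceptions. With 1 array of each label per pair, the difference between pairs has no test.

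The other genes of these families and their partners were read from lists, to see how far the falls extended. Of 13 other S100 genes and relatives, 6 were tested and 0 passed by limma in either direction (0 at an unadjusted p under 0.05 and 0 with the block). Their median log2 difference was -0.038. The brightest, S100pbp, an S100P-binding protein gene, stood at 0.17 and S100a16 at 0.28. Apart from S100pbp, the tested genes of this list were dim, with signals of at most 212 on any array. A fall in them could therefore not be resolved. Of 9 other annexins, 4 were tested and all 4 lay below 0, as did 50.3% of all genes, with a median of -0.50. By limma 1 was lower and 0 higher, against 1.35% of all genes lower. At an unadjusted p under 0.05, 2 were lower, against 7.05%, and with the block 2, against 6.36%. For all 4 both labelled-deficient arrays lay below both wild-type arrays, as for 21.1% of all genes. Anxa4, an annexin known from epithelial secretory membranes, fell. It read 979 and 1595 in wild-type cells against 393 and 452 in labelled-deficient cells, a log2 difference of -1.53 ± 0.30 (limma adjusted p = 0.0441), but its adjusted p was between 0.0673 and 0.155 under 7 of the 13 alternatives, leaving out each of 3 arrays (wild-type replicate 2 and either labelled-deficient replicate) among them. Anxa5, the annexin used as a probe of exposed phosphatidylserine, read 3131 and 3929 against 1985 and 2505 (log2 -0.65; limma adjusted p = 0.242, and 0.00787 with the block); it was named after its values were seen.

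Of 9 other galectins and relatives, 8 were tested and 0 passed by limma (1 lower at an unadjusted p under 0.05, against 7.05% of all genes, and 2 lower with the block, against 6.36%), with a median of -0.36. Lgals9, the galectin that binds the receptor TIM-3, read 1389 and 1399 in wild-type cells against 2169 and 1355 in labelled-deficient cells, and the groups overlapped (log2 0.30, limma adjusted p = 0.793). Lgals8 stood at -0.35 (adjusted p = 0.635). Lgalsl, a galectin-related gene, read 1152 and 1301 against 527 and 905 (log2 -0.81; limma adjusted p = 0.281, and 0.00908 with the block). The other gene lower with the block was Lgals3bp, which encodes a galectin-3-binding glycoprotein (log2 -0.60; limma adjusted p = 0.42, and 0.0396 with the block). Both were named after their values were seen.

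**Figure D4:**
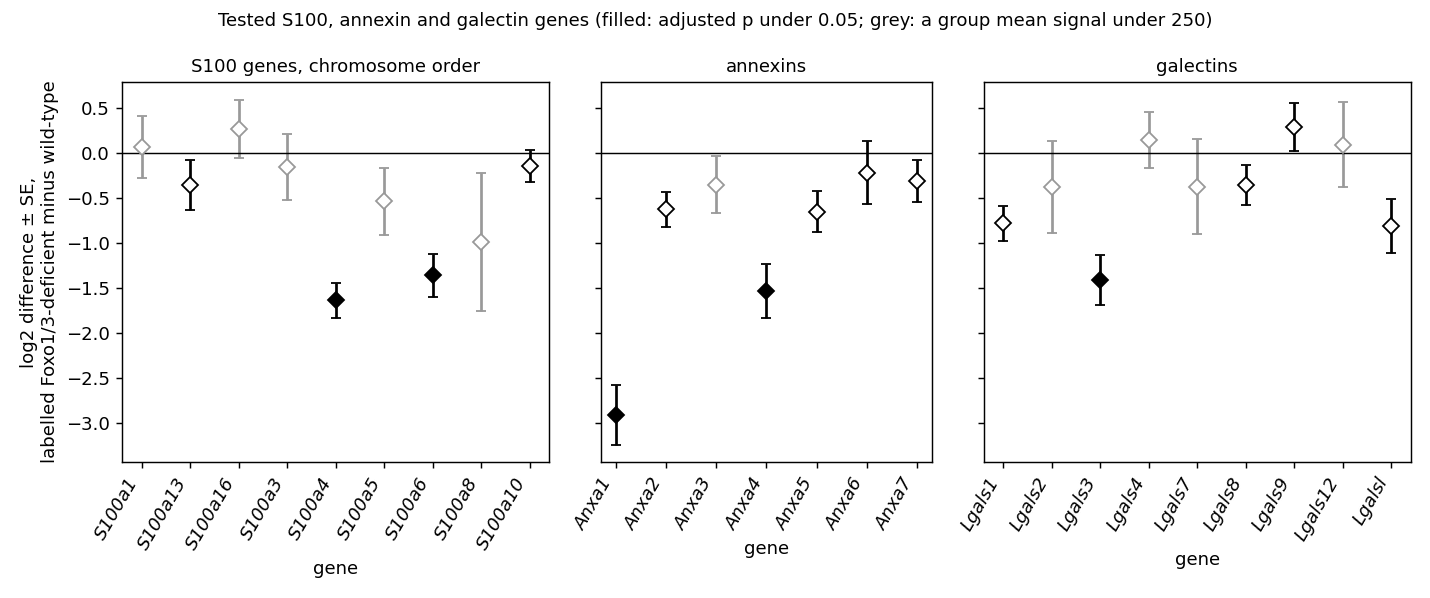
Log2 difference with its SE, labelled Foxo1/3-deficient minus wild-type, for the tested S100 genes in chromosome order, annexins and galectins; filled symbols have an adjusted p under 0.05 and grey symbols a group mean signal under 250. S100a4 and S100a6, Anxa1 and Anxa4, and Lgals3 are filled, all below 0.

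Of 23 genes for partners, receptors and glycan enzymes of these families, 19 were tested, with a median of -0.065. By limma 1 fell and 0 rose (1.35% and 1.21% of all genes). There were 3 lower and 3 higher both at an unadjusted p under 0.05 (7.05% and 5.93% of all genes) and with the block (6.36% and 5.23%). The gene that fell was Havcr2, which encodes the galectin-9 receptor TIM-3, from 538 and 1148 to 75.6 and 70.3 (log2 -3.16 ± 0.39, limma adjusted p = 0.0101). Ahnak, a giant scaffold protein that binds S100a10 and annexin A2, read 7154 and 8139 in wild-type cells against 3727 and 4453 in labelled-deficient cells. Its groups did not overlap, and its log2 difference of -0.90 ± 0.19 missed the threshold (limma adjusted p = 0.0605, and 0.000512 with the block). With the block, Gcnt1, a glycan-branching enzyme gene, was lower too (log2 -1.19, limma adjusted p = 0.160, and 0.00413 with the block). The 3 called higher with the block, none of them past the threshold without it, were the integrin gene Itgb1 (0.68, adjusted p = 0.0105), the sialyltransferase gene St6gal1 (0.69, 0.00725) and Ager, which encodes the S100 receptor RAGE (1.58, 0.0245). Ager read 207 and 16.4 in wild-type cells against 279 and 209 in labelled-deficient cells. Its log2 ratio was 0.40 in pair 1 and 2.76 in pair 2, where the wild-type signal was dim. Apart from Havcr2, the genes of this list were named after their values were seen.

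Macrophages and neutrophils also carry several of these transcripts, so their markers were set beside the falls. Of 14 macrophage markers 12 were tested and 11 lay above 0, as did 6017 of 12115 genes. None passed by limma (5 higher at an unadjusted p under 0.05, against 5.93% of all genes, and 5 higher with the block, against 5.23%). The summed signal was 12415 and 8006 in wild-type and 19913 and 13768 in labelled-deficient cells. Of the defining markers, Csf1r read 4749 and 2987 against 6676 and 5165, Adgre1 691 and 508 against 1538 and 978, and Cd14 229 and 113 against 297 and 186. Of 12 neutrophil markers 6 were tested and all 6 lay below 0, as did 50.3% of all genes. None was past the threshold by limma (1 lower at an unadjusted p under 0.05, against 7.05% of all genes, and 2 lower with the block, against 6.36%). The summed signal was 1519 and 987 in wild-type and 413 and 468 in labelled-deficient cells. Most of the wild-type sum came from Mmp9 (515 and 632 against 47.4 and 259) and Mpo (495 and 57.0 against 44.8 and 33.3), Mpo being bright on wild-type replicate 1 alone. Mmp9 and Mpo were named after their values were seen. The other tested neutrophil markers were dim, with signals of at most 211 on any array. S100a8, which with S100a9 is among the most abundant proteins of neutrophils, read 211 and 57.9 against 123 and 14.2, and S100a9 was dim, from 3.15 to 28.2. The part of other cells in the falls of the members was not tested. Of the other defining markers, Cd79a of B cells read 26.1 to 197, Ncr1 of natural killer cells 13.9 to 37.2 and Cd8a of CD8 T cells 143 to 232. Of the natural killer list, 1 of 5 tested fell, as did 1.35% of all genes: Gzma, a granule protease that T cells also make (log2 -4.68, limma adjusted p = 0.00152). In the dendritic, B cell, CD8 and erythroid or platelet lists, with 7, 7, 2 and 4 tested, 0 passed by limma. At an unadjusted p under 0.05, 1 dendritic marker was higher and 1 B cell marker lower, against 5.93% of all genes higher and 7.05% lower. With the block 1 dendritic marker was higher, and 1 B cell marker was higher and 1 lower, against 5.23% higher and 6.36% lower. The median differences of these lists were 0.036, 0.34, 0.21 and -0.26.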

How the data were processed

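The authors deposited MAS5 intensities (linear, 1 value per probe set and array), a method named by the submitters' processing notes without version or settings. Detection calls were not used, so dim and absent were not told apart, and precision is limited by the number of arrays. Of 45101 probe sets, 64 controls were left out; the platform annotation gave 1 symbol for 34945, several for 932 and none for 9160, and RefSeq (GRCm38.p6) gave a gene entry for 34741 of the single ones. Probe sets under the 40th percentile of mean log2(signal + 17) were left out, 17 being the 25th percentile of all values; each gene was read from its brightest probe set. The test was limma 3.58.1 (R 4.3.3; lmFit, then eBayes with trend), two-sided, adjusted over 12115 genes, or over 27022 probe sets where said. The fit without the block had 2 residual and 5.69 prior degrees of freedom. The blocked fit leaves fewer residual degrees of freedom, so its p-values rest more on the spread pooled over genes. An exact test of 2 against 2 cannot give a p under 0.333. The titles number pairs. Deviations from group means correlated at 0.367 across genes within a pair number. With 2 arrays a group, both pair numbers give this same value by construction, so it is 1 observation. A fit blocked on the pair was run as an alternative. So were other pseudocounts, filters, a quantile normalization, other probe set rules, no trend and leaving out each array. Members and lists were chosen with earlier results of these data known. Named were all members, list genes past the threshold (otherwise the 2 brightest of a list), and defining markers. Other genes, chosen after their values were seen, are S100a1, S100a3 and S100a5 (neighbours), Anxa5, Lgalsl, Lgals3bp, Ahnak, Gcnt1, Itgb1, St6gal1, Ager, Mmp9 and Mpo.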

Additional observations from a re-analysis of the deposited data

How the results depend on the processing

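Anxa1 kept its call under all 13 alternatives (log2 -3.30 to -2.52), S100a4 under 12 (-1.85 to -1.42; adjusted p = 0.0607 without the intensity trend), S100a6 under 10 and Lgals3 under 9. The 4 members called lower became 2 without the filter, where S100a6 and Lgals3 were lost, and 1 without the trend; when 1 array was left out the number ran from 3 to 5. Over all genes, the 164 lower and 147 higher calls became 44 and 45 without the filter, 54 and 57 without the trend, 107 and 97 when every probe set was tested, and 770 and 634 when the pair was a block. Leaving out 1 array gave 82 to 266 lower and 67 to 278 higher genes. Over probe sets, 143 lower and 171 higher became 705 and 682 when the pair was a block, and 98 to 187 and 110 to 368 without 1 array. Signs turned only for genes and probe sets that were not called. S100a10 per gene went to 0.068 on the mean of probe sets. Without 1 array S100a10 ran from -0.33 to 0.047 and Anxa6 from -0.72 to 0.29. Of single probe sets without 1 array, those of S100a10 ran from -0.41 to 0.30 and -0.022 to 0.83, those of Anxa6 from -0.55 to 0.37, -0.34 to 0.14 and -0.75 to 0.41, and the dim one of Anxa2 from -0.38 to 1.02. The cause was not tested. The alternatives for the within-pair count were chosen after seeing the data and left it at 3. With 2 arrays a group, a dim signal or a small difference cannot be resolved.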
